A study of Mus musculus with 6 samples.

Results

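The transcription factor Atf4 and 9 genes known as its targets or partners in the integrated stress response were followed in mouse liver lacking the kinase NEK7 in hepatocytes. The 10 genes are Atf4, Atf5, Ddit3, Trib3, Chac1, Gdf15, Asns, Psat1, Phgdh and Mthfd2. They were taken by gene symbol from a table of 17975 genes, and all 10 were among the 13805 genes with enough reads to be tested. In the integrated stress response, kinases that sense amino acid shortage, misfolded protein in the endoplasmic reticulum (ER), haem deficiency or double-stranded RNA phosphorylate the translation factor subunit eIF2α. General protein synthesis then slows while the mRNA of Atf4 is translated more, and the ATF4 protein switches on genes for amino acid synthesis, amino acid import, tRNA charging and, when stress lasts, cell death. Mitochondrial damage reaches the same kinases through the protease OMA1 and its substrate DELE1, and the liver is a tissue in which this response is well known. Because ATF4 is set largely by translation, the mRNA of Atf4 and the mRNAs of its targets are separate readouts.

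RNA was sequenced from whole liver of 3 WT mice and 3 Hom mice, 1 liver per library. Hom mice carried NEK7 fl/fl together with Alb-Cre, in which the albumin promoter drives Cre in hepatocytes, so that other liver cells should keep the gene. The floxed and the Cre line were both on a C57BL/6 background, and the labels describe the control genotype only as WT. The age and sex of the 6 sequenced animals are not given in the sources used here. The labels name no treatment.

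Nek7 itself checked the genotype labels. Its level was 65.2 ± 3.36 CPM (counts scaled to a common library total, mean ± SD, n = 3) in WT and 16.4 ± 1.83 CPM in Hom livers, and its log2 fold change was -1.99 (SE 0.10, edgeR adjusted p = 1.59e-04). The 6 libraries held between 19349418 and 19730236 estimated counts. Total counts were thus alike, but the trimmed mean of M-values (TMM) factors that correct for a few very abundant transcripts were 0.806 to 0.924 in WT and 1.087 to 1.234 in Hom livers, so that they separated the groups. CPM below are scaled with these factors, and a fold change is always Hom against WT on the log2 scale. One Hom liver, replicate 1, had 0 counts of the Y-linked genes Ddx3y and Kdm5d, whereas the other 5 livers had at least 630 and 243, so its sex differed from theirs. Hepatocyte markers were abundant in every liver, at a summed 152180 to 185620 CPM in WT and 67934 to 95019 CPM in Hom livers.

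None of the 10 genes rose in Hom livers, and 4 of them fell: Chac1, Atf5, Ddit3 and Atf4 (edgeR quasi-likelihood test, adjusted p under 0.05). The other 6 did not pass the test. Among all tested genes, 21.5% were called higher and 20.1% were called lower. Their log2 fold changes had a median of -0.67, beside -0.0018 for all tested genes, with a range from -1.61 for Chac1 to 1.39 for Asns. In 5 of the 10 genes every Hom liver lay below every WT liver, and over all tested genes this held for 27.0%. These decreases depend on the scale. With library size alone as the scale, the median of all tested genes moved to 0.45, the calls over all genes shifted from 2974 higher and 2780 lower to 6574 higher and 642 lower, and only Atf5 of the 10 remained called lower. The median of the 10 genes was -0.23 on that scale, still below that of all genes.

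**Figure D1:**
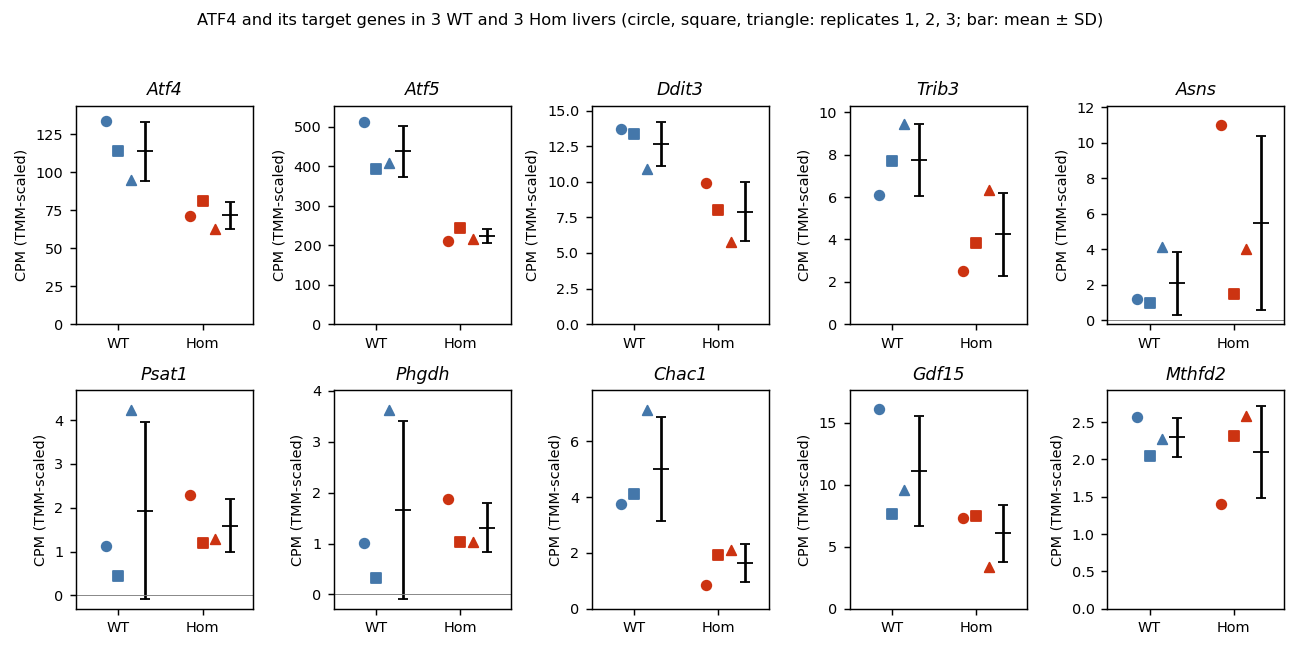
Each panel plots 1 gene, with TMM-scaled CPM on a linear y axis and the 3 WT livers (blue) beside the 3 Hom livers (red). Circles, squares and triangles are replicates 1, 2 and 3, and the black bar is the mean ± SD. For Atf4, Atf5, Ddit3, Chac1 and Gdf15 all 3 Hom livers sit below all 3 WT livers, while Asns, Psat1 and Phgdh are set apart by single livers.

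The transcription factors come first. Atf4, the effector of the pathway, measured 133, 114 and 94.4 CPM in WT replicates 1 to 3 and 71.3, 80.7 and 62.8 CPM in Hom replicates 1 to 3. All Hom livers were below all WT livers, with means of 114 ± 19.4 and 71.6 ± 8.96 CPM, and the log2 fold change was -0.67 (SE 0.15, edgeR adjusted p = 0.0122). The estimated counts before scaling overlapped, at 2386, 1774 and 1537 in WT and 1528, 1957 and 1456 in Hom livers. With library size alone the difference was -0.22 (adjusted p = 0.344), so the call for Atf4 rests on how the libraries are scaled.

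Atf5, a related factor that is itself under translational control and has been tied to mitochondrial stress, was the most abundant of the 10 per transcript length. It measured 511, 393 and 408 CPM in WT and 211, 243 and 214 CPM in Hom livers. On this scale each Hom liver was thus well below the lowest WT liver. The Hom mean was 50.9% of the WT mean, with a log2 fold change of -0.97 (SE 0.14, edgeR adjusted p = 0.00223). Judged by adjusted p alone, it was called lower under all 13 alternative scalings, filters, tests and left-out livers, with adjusted p from 5.77e-11 to 0.0462, and counts of alternatives below refer to these 13. It did not reach the minimum log2 fold change of 1 that was asked for in a further alternative, which among the 10 genes Chac1 alone passed. Exons of Atf5 overlap those of Il4i1 and Nup62 on the opposite strand, and whether the libraries kept strand is not given in the sources used here.

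Ddit3 encodes CHOP, the factor that links unresolved ER stress to cell death. It measured 13.7, 13.3 and 10.9 CPM in WT and 9.89, 8.04 and 5.78 CPM in Hom livers. The groups did not overlap, but the nearest livers were close, and the fitted change was -0.68 on the log2 scale (SE 0.21, edgeR adjusted p = 0.0386). The call was lost when WT replicate 1, WT replicate 2, Hom replicate 2 or Hom replicate 3 was left out, with adjusted p of 0.0862, 0.107, 0.0922 and 0.0821. It was also lost with library size alone (-0.24, adjusted p = 0.369), with upper-quartile factors (adjusted p = 0.0613) and with the gene length correction (adjusted p = 0.0723), so that Ddit3 was called under 6 of the 13 alternatives. Ddit3 also shares exon sequence with the methionyl-tRNA synthetase gene Mars1 on the opposite strand, its counts were split fractions in 5 of the 6 livers, and Mars1 itself fell by 0.90 on the log2 scale.

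Per transcript length, Atf5 stood above Atf4 in every liver. The authors' length-scaled values, transcript abundances (TPM), averaged 378 for Atf5 and 109 for Atf4 in WT livers, placing them 334th and 1001st among all genes. The ratio of Atf5 to Atf4 ran from 3.12 to 3.92 in WT and from 2.68 to 3.02 in Hom livers. On the TPM scale, in which each library sums to the same total, Atf4 averaged 109 in WT and 106 in Hom livers, and Atf5 378 and 294. The groups overlapped in TPM for both genes. Atf5 was at 338 in Hom replicate 2, against 313 and 328 in WT replicates 2 and 3.

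Among the stress targets downstream, Chac1 showed the largest fall. It encodes an enzyme that degrades glutathione and is a well-known target of the ATF4 and CHOP branch. It measured 3.74, 4.11 and 7.13 CPM in WT and 0.840, 1.94 and 2.11 CPM in Hom livers. All Hom livers were lower, and the log2 fold change was -1.61 (SE 0.41, edgeR adjusted p = 0.0199). These are low counts, 64 to 116 in WT and 18 to 49 in Hom livers. Without WT replicate 3, the highest liver, the adjusted p was 0.0543, and with library size alone it was 0.0605 at a log2 fold change of -1.12.

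Trib3, a pseudokinase that feeds back on ATF4 and CHOP, did not pass the test. It measured 6.09, 7.70 and 9.46 CPM in WT and 2.52, 3.83 and 6.34 CPM in Hom livers. The highest Hom liver lay above the lowest WT liver, and the log2 fold change was -0.87 (SE 0.34, edgeR adjusted p = 0.0811). Trib3 passed with DESeq2 (adjusted p = 0.0451) and without Hom replicate 3 (adjusted p = 0.0285).

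Gdf15, a secreted factor that signals to the hindbrain and is often raised by mitochondrial stress, was at 16.1, 7.63 and 9.59 CPM in WT and 7.33, 7.50 and 3.41 CPM in Hom livers. The groups were separate by a narrow margin, and WT replicate 1 was the highest. The log2 fold change was -0.87 (SE 0.38, edgeR adjusted p = 0.104), and Gdf15 did not pass the test under any of the 13 alternatives. It was at -0.51 without WT replicate 1 and at -0.45 with library size alone.

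The enzymes of amino acid synthesis did not pass the test. Asns, which makes asparagine and is the classical target of the amino acid branch, was the only one of the 10 with a higher mean TMM-scaled CPM in Hom livers. It measured 1.17, 0.962 and 4.12 CPM in WT and 11.0, 1.48 and 4.01 CPM in Hom livers. Hom replicate 1 alone was above every WT liver. The log2 fold change was 1.39 (SE 0.82, edgeR adjusted p = 0.209), and it was 0.40 (adjusted p = 0.695) without that liver. Without WT replicate 3 it was 2.34 (adjusted p = 0.0882).

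Phgdh and Psat1 encode the first and second enzymes of serine synthesis. Psat1 measured 1.12, 0.449 and 4.24 CPM in WT and 2.29, 1.20 and 1.29 CPM in Hom livers. Phgdh measured 1.01, 0.321 and 3.63 CPM in WT and 1.87, 1.03 and 1.03 CPM in Hom livers. WT replicate 3 was the highest liver and WT replicate 2 the lowest for both genes, so the WT livers spanned the Hom livers. The log2 fold change was -0.28 (SE 0.74, edgeR adjusted p = 0.779) for Psat1 and -0.34 (SE 0.76, edgeR adjusted p = 0.746) for Phgdh. Without WT replicate 3 the direction turned, to 0.99 and 0.94. Both genes also turned positive with library size alone, at 0.16 and 0.11. Counts were low, from 7 to 69 for Psat1 and from 5 to 59 for Phgdh. A pseudogene of Phgdh, Phgdh-ps1, is annotated. The counts of Phgdh were whole numbers in every liver, and whether the pseudogene took some of its reads was not tested.

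Psat1 and Phgdh varied together from liver to liver. In TPM the ratio of Psat1 to Phgdh lay between 0.956 and 1.17 over the 6 livers, although the CPM of Psat1 varied 9.44-fold and that of Phgdh 11.3-fold between the lowest and the highest liver. The ratio of Asns to Psat1 was not fixed and ran from 1.11 to 5.32, with the highest value in Hom replicate 1.

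**Figure D2:**
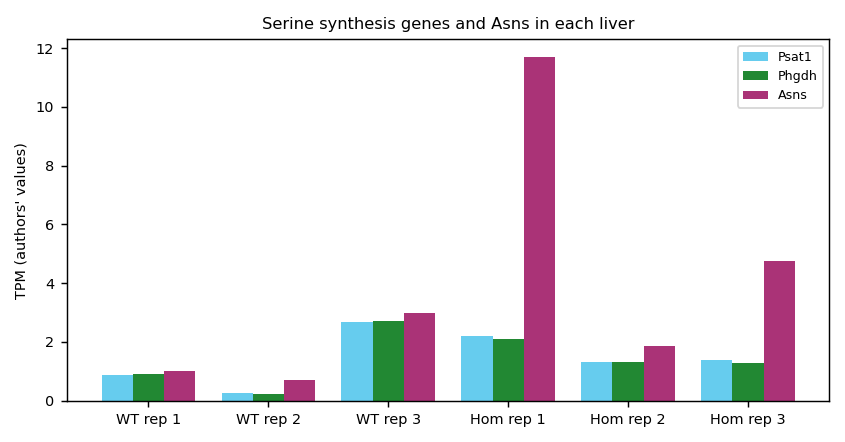
Bars give the authors' TPM (linear y axis from 0) of Psat1, Phgdh and Asns in each of the 3 WT and 3 Hom livers, 1 bar per gene and liver with no error bar. Psat1 and Phgdh rise and fall together from liver to liver at a ratio between 0.956 and 1.17, while Asns stands apart in Hom replicate 1 at 11.7 TPM.

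Mthfd2, a mitochondrial folate enzyme known as an ATF4 target, was low in all livers. It measured 2.57, 2.05 and 2.27 CPM in WT and 1.40, 2.31 and 2.59 CPM in Hom livers. The groups overlapped, with the lowest and the highest liver both in the Hom group. The log2 fold change was -0.13 (SE 0.29, edgeR adjusted p = 0.741), and it was 0.33 with library size alone.

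**Figure D3:**
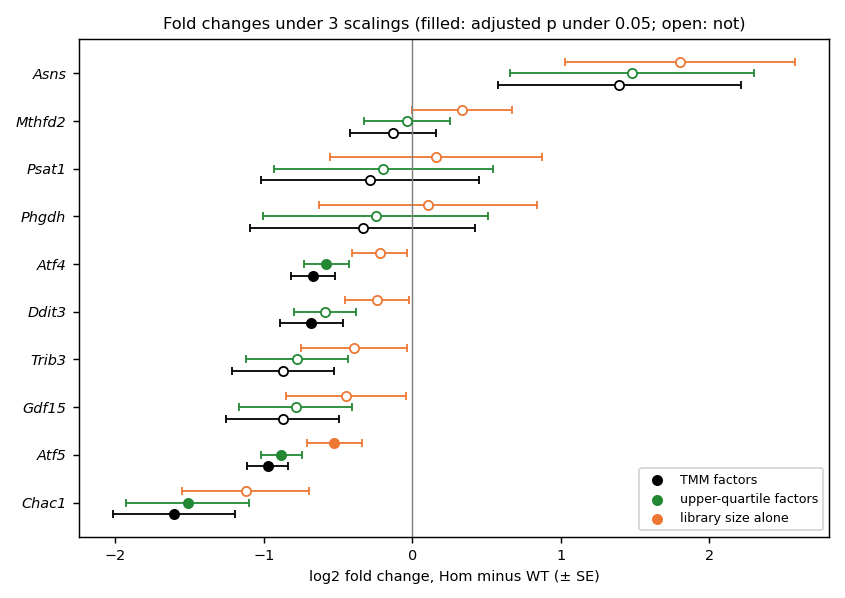
Points give the log2 fold change of each gene (x axis, Hom minus WT) ± SE under TMM factors (black), upper-quartile factors (green) and library size alone (orange), and filled points have an adjusted p under 0.05. Atf5 is filled under all 3 scalings, Atf4 and Chac1 under 2, Ddit3 under 1, and Asns lies to the right of 0 with wide, open intervals.

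ATF4 pairs with C/EBP family members on a composite DNA element, abbreviated CARE. The rule for the 10 genes used symbols and no sequence. They were nevertheless chosen as known targets or partners of ATF4, so a high share of the motif among them is not independent of that choice. The motif TGATGNAA was searched on both strands, in RefSeq promoter windows (GRCm38.p6) from 250 bases before to 50 bases after each annotated start. All 10 genes had a window. A match was present in 3 of the 10, Chac1, Asns and Trib3, which is 30% beside 4.51% of 27025 genes with a window. Among tested genes with a window the share was 3.35% of those called higher, 2.74% of those called lower and 2.82% of the others. The stretches around the matches are shown so that the letters behind each match can be read beside the values above, in which Chac1 fell and Asns and Trib3 did not pass the test. Each reads 5′ to 3′ along the strand of the gene, and capitals mark the match.
Chac1, chr2:119351023-119351082, plus strand, match 193 bases before the start on the opposite strand: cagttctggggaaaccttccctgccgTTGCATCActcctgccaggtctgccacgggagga
Asns, chr6:7693214-7693243, minus strand, match 23 bases before the start on the same strand: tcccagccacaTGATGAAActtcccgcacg
Trib3, chr2:152344028-152344057, minus strand, match 14 bases past the start on the opposite strand: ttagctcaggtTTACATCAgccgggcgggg
For every window of the 10 genes except that of Trib3, the bases checked just past the start were found in a GENCODE transcript of the gene. The distance given for Trib3 thus rests on the RefSeq start alone. The expression table carries no coordinates, the submitters' processing notes name mm9 as their build, and a match is a stretch of letters only, with no measurement of binding in these data.

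The rest of the pathway was read from 10 further gene lists with 86 tested genes. Of these, 9 rose, 44 fell and 33 did not pass, with a median log2 fold change of -0.41. With library size alone, 20 were called higher and 13 lower.

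Upstream, the 4 eIF2α kinases split into pairs. Eif2ak2 (PKR, the sensor of double-stranded RNA) rose by 0.61 and Eif2ak4 (GCN2, the sensor of uncharged tRNA) rose by 0.58 on the log2 scale (edgeR adjusted p = 0.0175 and 0.00731). The call for Eif2ak2 was lost without WT replicate 2 or WT replicate 3 (adjusted p = 0.0510 and 0.0557). Eif2ak1 (HRI, the haem sensor that also receives the DELE1 signal) fell by 0.46 and Eif2ak3 (PERK, the ER sensor) fell by 0.48 (edgeR adjusted p = 0.00547 and 0.00896), but with library size alone these 2 were at 0.0023 and -0.029. Eif2ak4 measured 7.99, 8.21 and 7.44 CPM in WT and 11.2, 11.9 and 12.2 CPM in Hom livers, whereas Eif2ak1 measured 53.8, 61.4 and 58.5 CPM in WT and 39.8, 42.8 and 43.6 CPM in Hom livers. For neither gene did the groups overlap on the TMM scale.

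Of the 8 genes for eIF2 and its exchange factor eIF2B, 0 rose and 2 fell, Eif2b5 by 0.43 and Eif2b1 by 0.34 on the log2 scale, and both turned slightly positive with library size alone, at 0.020 and 0.11. The call for Eif2b1 was also lost without WT replicate 2, Hom replicate 2 or Hom replicate 3 (adjusted p = 0.0521, 0.0760 and 0.0895). In the mitochondrial relay of 5 genes, 0 rose and 2 fell. These were the prohibitins Phb2, which fell by 0.61, and Phb, which fell by 0.38 on the log2 scale, and with library size alone neither was called lower, at -0.15 (adjusted p = 0.192) and 0.077. The relay genes proper did not pass the test, with Oma1 at -0.09 (edgeR adjusted p = 0.673) and Dele1 at -0.19 (edgeR adjusted p = 0.198), but with library size alone Oma1 was at 0.37 and Dele1 was called higher, at 0.27 (adjusted p = 0.0331).

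The list of eIF2α phosphatase and feedback genes held the largest rise in the pathway. Of 9 genes, 1 rose and 4 fell, and the 4 became 2 without any single liver other than WT replicate 3 and 0 with library size alone. Atf3, a stress-induced factor of the same family that acts downstream of ATF4 and of other signals, measured 2.01, 1.41 and 0.614 CPM in WT and 10.1, 9.44 and 8.10 CPM in Hom livers. Every Hom liver was far above every WT liver, and the log2 fold change was 2.76 (SE 0.37, edgeR adjusted p = 0.00187). It was called higher under all 13 alternatives, with a log2 fold change of 2.41 to 3.20.

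Cebpb, a C/EBP partner of ATF4, went the other way, at 213, 149 and 176 CPM in WT and 104, 84.3 and 96.0 CPM in Hom livers. It fell by 0.92 on the log2 scale (edgeR adjusted p = 0.00385). Sesn2, an inhibitor of mTORC1 signalling, fell by 0.83 (edgeR adjusted p = 0.0210), and Ppp1r15b, the constitutive subunit of the eIF2α phosphatase, fell by 0.35 (edgeR adjusted p = 0.0434) but was at 0.095 with library size alone. With library size alone Cebpb was at -0.49 (adjusted p = 0.0528) and Sesn2 at -0.39 (adjusted p = 0.227). Sesn2 also lost its call without Hom replicate 1 or 2 (adjusted p = 0.0524 and 0.0692), and Ppp1r15b without any single liver other than Hom replicate 1 (adjusted p = 0.0728 to 0.107). Its inducible counterpart Ppp1r15a, also called GADD34, was at -0.44 (edgeR adjusted p = 0.186), and at -0.11 without WT replicate 1. Ddit4 was at -0.15 and Nupr1 at 0.64, and neither passed the test (edgeR adjusted p = 0.672 and 0.196), although Nupr1 passed without WT replicate 3 (adjusted p = 0.0197).

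The metabolic genes of the response were divided. Of 11 tested genes for serine, glycine, folate and proline metabolism, 3 rose and 4 fell. Pck2, the mitochondrial PEP carboxykinase, measured 3.91, 2.50 and 2.52 CPM in WT and 7.56, 8.04 and 7.41 CPM in Hom livers, with a log2 fold change of 1.36 (SE 0.21, edgeR adjusted p = 0.00333). Aldh18a1, the entry enzyme of proline synthesis, rose by 1.34 (edgeR adjusted p = 0.0252), and Mthfd1l, a mitochondrial folate enzyme, rose by 2.18 (edgeR adjusted p = 0.0319). Pck2 was called under all 13 alternatives, but Aldh18a1 was lost without WT replicate 3 or any single Hom liver (adjusted p = 0.0508 to 0.0768). The call for Mthfd1l was lost without WT replicate 2, WT replicate 3, Hom replicate 1 or Hom replicate 2 (adjusted p = 0.0504 to 0.0905). Pck2 and Aldh18a1 were named after their values were seen. Shmt2, the mitochondrial serine hydroxymethyltransferase, fell by 0.68 (edgeR adjusted p = 0.0070), but was at -0.21 with library size alone (adjusted p = 0.155), and Cbs, of transsulfuration, fell by 0.94 (edgeR adjusted p = 0.0103). Psph, the last step of serine synthesis, was at -0.13 and Pycr1 at 0.46 (edgeR adjusted p = 0.684 and 0.289).

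Of 13 genes for cytosolic tRNA synthetases and tRNA export, 0 rose and 9 fell, with a median of -0.40. With library size alone this became 3 higher and 3 lower. Tars, for threonine, showed the largest fall, at 150, 181 and 183 CPM in WT and 72.2, 77.6 and 88.3 CPM in Hom livers. Its log2 fold change was -1.11 (SE 0.12, edgeR adjusted p = 9.33e-04), and it was called under all 13 alternatives. Rars, for arginine, was not in the list and was higher in Hom livers, by 0.30 on the log2 scale (edgeR adjusted p = 0.0381), a call that was kept under 7 of the 13 alternatives and lost when any single liver other than WT replicate 3 was left out (adjusted p = 0.0738 to 0.109). The tRNA exporter gene Xpot fell by 0.34 (edgeR adjusted p = 0.0281) but was at 0.11 with library size alone, and it lost its call without WT replicate 1, WT replicate 2, Hom replicate 2 or Hom replicate 3 (adjusted p = 0.0627 to 0.0932). The CARE motif was present in the windows of 5 of the 9 synthetase list genes with a window, Aars, Gars, Iars, Tars and Yars. Of these, Gars did not pass the test. This share, 55.6%, was the highest of the pathway lists, beside 4.51% of all genes with a window. The share was 0 in the kinase, relay and mitochondrial chaperone lists, 7.14% in the ER list and 14.3% to 33.3% in the others. In those other pathway lists, motif genes called higher were Atf3, Pck2 and Slc1a4, and Herpud1 of the ER list was called lower.

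Among 7 tested amino acid transporters 2 rose and 1 fell. Of the 2, Slc1a4 lost its call without WT replicate 2, WT replicate 3, Hom replicate 1 or Hom replicate 3 (adjusted p = 0.0620 to 0.0937). Slc38a2, the system A transporter SNAT2, measured 299.8, 209.8 and 181 CPM in WT and 79.7, 65.1 and 79.0 CPM in Hom livers, with a log2 fold change of -1.62 (SE 0.20, edgeR adjusted p = 0.00145). Slc1a5, the neutral amino acid exchanger ASCT2, measured 3.57, 2.31 and 3.26 CPM in WT and 11.0, 9.19 and 7.50 CPM in Hom livers, with a log2 fold change of 1.59 (SE 0.23, edgeR adjusted p = 0.00241). Slc38a2 thus fell while Slc1a5 rose, and both calls held under all 13 alternatives. The cystine transporter gene Slc7a11 had too few reads to be tested, with 20 counts in WT replicate 3 and 3 to 5 in the other livers.

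Of 4 secreted factors 1 rose and 1 fell. Angptl4, an inhibitor of lipoprotein lipase that PPAR factors also control, measured 224, 230.3 and 228 CPM in WT and 15.9, 21.6 and 34.7 CPM in Hom livers, with a log2 fold change of -3.24 (SE 0.28, edgeR adjusted p = 4.92e-04). Fgf21, the hepatic hormone that ATF4 and PPARα induce, was at 3.46, 1.15 and 0.983 CPM in WT and 0.467, 3.01 and 0.603 CPM in Hom livers. Its groups overlapped, and its log2 fold change of -0.45 had an SE of 0.81 (edgeR adjusted p = 0.677). The factor that rose was Stc2, at 1.78 on the log2 scale, and its call was lost without Hom replicate 2 (adjusted p = 0.0546).

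The neighbouring stress programmes were mostly lower on the TMM scale. Of 17 genes of the ATF6 and XBP1 arms of the ER unfolded protein response, 0 rose and 12 fell, with a median of -0.69 (1 higher and 4 lower with library size alone). The 12 became 7 without WT replicate 3 and 5 without Hom replicate 2 or Hom replicate 3. Herpud1, an ER-associated degradation factor, measured 902, 833 and 863 CPM in WT and 163, 166 and 150.0 CPM in Hom livers. Its fitted change of -2.44 on the log2 scale (SE 0.11, edgeR adjusted p = 1.07e-04) was called under all 13 alternatives. Hspa5, the ER chaperone BiP, measured 1010, 809 and 1517 CPM in WT and 782, 485 and 460 CPM in Hom livers, and fell by 0.95 (edgeR adjusted p = 0.0404). This call was lost under 7 of the 13 alternatives and did not reach the minimum fold change of the further one, and the 7 included those without WT replicate 1, WT replicate 3, Hom replicate 2 or Hom replicate 3 (adjusted p = 0.0577 to 0.128). Atf6 fell by 0.42 but was at 0.031 with library size alone, and Xbp1 was at 0.16 (edgeR adjusted p = 0.445). Of 8 mitochondrial chaperones and proteases, 0 rose and 7 fell, with a median of -0.66 (0 higher and 2 lower with library size alone). Clpx, the unfoldase of the ClpXP protease, fell by 1.49, the chaperonin gene Hspd1 by 0.67 and the protease gene Lonp1 by 0.53 on the log2 scale. The calls for Hspd1 and Lonp1 were lost with library size alone (adjusted p = 0.225 and 0.514).

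**Figure D4:**
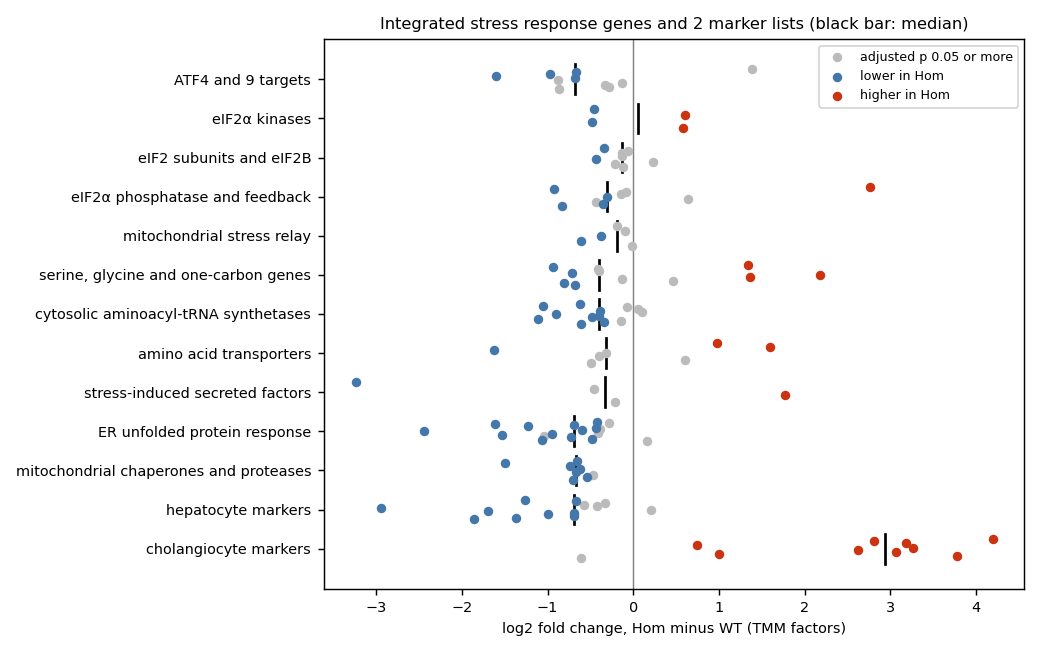
Each point is 1 tested gene, placed by its log2 fold change (x axis, Hom minus WT, TMM factors) and by list (y axis), with red for genes called higher, blue for lower and grey for those that did not pass, and a black bar at the list median. The 10 genes of the top row have a median of -0.67, Atf3 stands at 2.76 in a feedback list whose median is -0.30, and cholangiocyte markers have a median of 2.94.

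The cell types of the tissue moved with the genotype. Of 13 hepatocyte markers, 0 rose and 9 fell, with a median log2 fold change of -0.70, and the 9 became 5 with library size alone, 5 without WT replicate 2 and 4 without Hom replicate 3. Of 10 cholangiocyte markers 9 rose, with a median of 2.94 and a summed 72.7 to 104 CPM in WT against 635 to 890.4 CPM in Hom livers. Of 10 stellate cell and fibroblast markers 6 rose and 1 fell, with a summed 340.4 to 400.5 CPM in WT and 725 to 801 CPM in Hom livers. Of 10 proliferation markers 9 rose, with a summed 13.0 to 18.6 CPM in WT and 29.0 to 60.9 CPM in Hom livers. The 9 became 3 without Hom replicate 2 and 5 without Hom replicate 3. With a minimum of 10 counts in every liver only 4 of these markers were tested, and 3 of the 4 were called higher. Endothelial markers were 1 higher and 5 lower of 10 (191 to 260 CPM in WT, 135 to 143 in Hom), macrophage markers 3 higher and 1 lower of 10 (236 to 587 and 334 to 463 CPM), and lymphocyte markers 2 higher and 0 lower of 7 tested (6.80 to 10.3 and 9.29 to 15.6 CPM). Neutrophil markers were 0 higher and 0 lower of 5 tested (9.43 to 107 and 22.7 to 53.3 CPM). With single livers left out, macrophage calls ranged from 1 to 6 higher and 0 to 2 lower, and lymphocyte calls from 0 to 3 higher. The median of the 10 ATF4 genes, -0.67, was thus near that of the hepatocyte markers, and the part of this shift in cell types in any result above was not tested. In whole liver, fewer cells of a type and less RNA per cell cannot be told apart. None of the markers used was under 3 counts in every liver.

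Without Hom replicate 1, the liver whose sex differed, the same 4 of the 10 genes were called lower, with an adjusted p of 0.0314 for Atf4, 0.00677 for Atf5, 0.0191 for Ddit3 and 0.0323 for Chac1. The deviations from the group mean were averaged over the 10 genes. This average was lowest in WT replicate 2 (-0.45 on the log2 scale) and highest in WT replicate 3 (0.46). The other 4 livers lay between -0.077 and 0.12. The 10 genes did not move alike. Among the WT livers, Trib3, Asns, Psat1, Phgdh and Chac1 were highest in replicate 3, whereas the others were highest in replicate 1. Atf4 and Ddit3 were lowest in replicate 3. The 5 genes outside the lists whose deviations were most like the average, of 8155 with at least 10 CPM, were Nans, Stx18, Lrrc20, Sec61b and Rars. Their Pearson r lay between 0.987 and 0.994 over the 6 livers, and between 0.818 and 0.970 over the 4 livers left without WT replicates 2 and 3, as a description of 6 libraries that share their scaling.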

How the data were processed

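Total RNA of 3 WT and 3 Hom livers was sequenced on the DNBSEQ platform. The submitters' processing notes name HISAT2 2.0.4, Bowtie2 2.2.5, RSEM 1.2.12 and the build mm9, and strandedness is not given in the sources used here. The authors deposited estimated counts per gene and liver (expected counts, 65.9% of them whole numbers), not scaled between livers. The authors also deposited FPKM, used here only to recover gene length (98.9% of tested genes), and TPM, used here with no test, for levels between genes and as a second view of levels by liver. The deposited group means carry crossed names in 17975 of 17975 genes and were not used.

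The rounded estimates were fitted with edgeR 4.0.16 under R 4.3.3 (filterByExpr, TMM, glmQLFit and glmQLFTest), with Benjamini-Hochberg adjustment over 13805 genes and a threshold of 0.05 with no minimum fold change. Standard errors came from the fold change and the F statistic. The code was first tested on simulated data with known changes. Genes under 100 counts carry relatively more counting noise, but the part of depth in their errors was not tested. The p-values weigh the difference between the groups against the spread of the livers within each group. Each library came from a separate liver and was counted as a separate sample. Replicates of a group differed by at least 22.3 times counting noise (chi-square per degree of freedom). That value alone cannot tell animals from library preparations.

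The 10 genes and all lists were chosen with earlier results of these data known, so no list was tested as a set. Named genes were Nek7, the 10 genes, a written list of pathway genes and, in each list, the called genes with the highest and lowest log2 fold change at a mean of at least 1 CPM. Mars1, Pck2, Aldh18a1, Stc2, Slc1a4, the Y-linked genes and genes holding the motif were named after their values were seen. Promoter windows are from RefSeq, and overlapping exons from GENCODE M21 (GRCm38). Alternatives were DESeq2 1.42.0, library size alone, upper-quartile factors, 2 other count filters, a replicate block, a minimum log2 fold change of 1, a loess correction for gene length and leaving out each liver.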

Additional observations from a re-analysis of the deposited data

How the results depend on the processing

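Over 138 comparisons of the 10 genes with an alternative, 114 kept direction and side of the threshold, 13 lost the call, 3 gained it and 8 turned direction. Over 46 named genes these were 541, 70, 6 and 24 of 641. The scale moved the genes called higher and the median of the 10 genes most. Counts of lower calls fell as far or further with a minimum log2 fold change of 1. With library size alone, 6574 genes were called higher and 642 lower, 1 of the 10 genes and 13 of the other pathway genes were lower, 20 of the latter were higher, and the median of the 10 genes was -0.23. With upper-quartile factors that median was -0.58, and with the gene length correction -0.57. A minimum log2 fold change of 1 left 1825 genes higher and 575 lower, with 1 of the 10 and 10 of the other pathway genes lower. Leaving out single livers gave 1767 to 2750 genes lower, the lowest without Hom replicate 3, and a median of the 10 genes from -0.78 to -0.54. Without WT replicate 2 or Hom replicates 2 or 3 the genes called higher were 2070, 2023 and 1986. These fits hold fewer livers.

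Directions turned with library size alone for Atf6 (0.031), Ddit4 (0.29), Dele1 (0.27), Eif2ak1 (0.0023), Eif2b1 (0.11), Eif2b5 (0.020), Mthfd2 (0.33), Oma1 (0.37), Phb (0.077), Phgdh (0.11), Ppp1r15a (0.00080), Ppp1r15b (0.095), Psat1 (0.16), Psph (0.33) and Xpot (0.11), where the median of all genes was itself 0.45. With single livers left out, the log2 fold change ranged from -0.36 to 0.031 for Ddit4, -1.79 to 0.35 for Fgf21, -0.31 to 0.089 for Mthfd2, -0.26 to 0.011 for Oma1, -0.82 to 0.94 for Phgdh, -0.75 to 0.99 for Psat1 and -0.25 to 0.12 for Psph. The cause was not tested.

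Replicate numbers did not pair the mice. Same-numbered livers deviated together with r of -0.109, -0.0563 and -0.0494, and 0 of 3 matched its own number best. With the replicate block, 5 of the 10 genes were lower (Trib3 besides the 4), 2383 genes were higher and 2214 lower over all genes, and Phgdh and Psat1 turned to 0.13 and 0.16. Asns, Psat1, Phgdh, Mthfd2 and Chac1 had under 100 counts in most livers, and the part of depth in their errors was not tested.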
